A study of Macaca mulatta with 10 samples.

Results

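The genes described here encode the proteins that hold synaptic vesicles at the nerve terminal, dock them at the membrane and fuse them with it. They were chosen by symbol: every gene annotated as a synaptotagmin (SYT), syntaxin (STX), syntaxin-binding protein (STXBP), vesicle-associated membrane protein (VAMP), complexin (CPLX) or RIM protein (RIMS) with a number, together with the synapsins, SYP, SNAP23, SNAP25, SNAP29, SNAP91, NSF, the SV2, RAB3 and UNC13 genes. Of 11963 genes measured, 53 were members, and no member was dropped for a low value. They were 7 VAMPs (VAMP1, VAMP2, VAMP3, VAMP4, VAMP5, VAMP7 and VAMP8), 14 syntaxins (STX1A, STX2 to STX8, STX10 to STX12 and STX16 to STX18), the 3 SNAP genes of the target membrane and 7 synaptotagmins (SYT1, SYT2, SYT5, SYT11, SYT12, SYT13 and SYT17). The others were CPLX2, CPLX3, RIMS1, RIMS2, UNC13A, UNC13B, STXBP2, STXBP3, STXBP5L, STXBP6, RAB3A, RAB3B, RAB3D, SYN1, SYN2, SYN3, SYP, SV2A, SV2B, SV2C, SNAP91 and NSF.

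In textbook terms, a vesicle fuses when a SNARE protein on the vesicle, such as VAMP1 or VAMP2, zips into a bundle with syntaxin and SNAP25 on the target membrane. Docking and priming proteins (RIM, UNC13, RAB3 and the STXBP family) prepare the bundle, complexins hold it, synaptotagmins release it when calcium enters, and NSF takes the spent bundle apart. Neurons use one set of these proteins, while many syntaxins and VAMPs (STX4, STX5, STX18, VAMP3 and VAMP8 among them) serve the Golgi apparatus, endosomes or plasma membrane of most cells, so the list is not restricted to synapses.

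Messenger RNA was measured in tissue punches of the brain of adult rhesus monkeys (Macaca mulatta) that had received no treatment. The labels name 5 nuclei of the dorsal thalamus: Ventral Thalamus, Medial Thalamus and Anterior Thalamus, the Pulvinar, and the Centre Median. Each nucleus has 2 arrays, numbered replicate 1 and replicate 2, of an Affymetrix design made for human transcripts. No transgene, lesion or drug distinguishes the groups, and sex, exact age and the number of animals are not given, so the p-values below measure only the spread between these arrays. The study asked which genes set the nuclei apart. Levels are log2(intensity + 1), and differences are differences of these levels, so 1 unit is a doubling. The levels are those of whole punches, in which fewer cells of a type and less RNA per cell cannot be told apart. Each probe set was taken for its annotated gene, and whether it reads only that gene was not tested. Levels of different genes are not set against each other.

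Differences between the replicates were about as large as those between the nuclei. Over the 53 members the median difference between the replicates of a nucleus, taken without sign and averaged over the nuclei, was 0.33, against a median range of 0.27 between the highest and lowest nucleus mean. For 28 members (52.8%) the range between nuclei exceeded that replicate difference, and for 40.7% of all genes it did. The measures are unlike, since the range is the widest gap among nucleus means and the other averages gaps between single arrays. Same-numbered arrays moved together in all 10 pairs of nuclei, so each comparison was fitted once as it stands and once with a block for the replicate number (a term that removes the shift between the arrays numbered 1 and those numbered 2). Within replicate 1, the XIST transcript of the inactive X chromosome was at 8.96 in Centre Median and 9.60 in Pulvinar and at 6.70 to 7.22 in the other 3 nuclei, while all replicate 2 arrays were at 9.86 to 10.34. The RPS4Y1 transcript ran the other way within replicate 1, at 7.65 in Centre Median, 7.22 in Pulvinar and 8.16 to 8.94 in the others. The replicate 1 arrays thus differed among themselves in these transcripts. Within replicate 1, a difference of Centre Median or Pulvinar from the other nuclei cannot be told apart from this split. TCF7L2, a transcription factor of thalamic neurons, had nucleus means from 12.23 to 12.70.

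Few members differed between nuclei beyond this spread. Without the block, limma called 0 of 53 members at a Benjamini-Hochberg adjusted p under 0.05 in each comparison, beside 0.0251% of all genes in Centre Median and 0.0% in the F test, in each other nucleus against the rest and in Medial Thalamus against Ventral Thalamus. At an unadjusted p under 0.05 the same fit had 1 member in the F test over the nuclei (0.719% of genes), 1 in Anterior Thalamus (0.301%), 1 in Centre Median (0.995%), 2 in Medial Thalamus (1.22%) and 0 in Pulvinar (0.284%). It had 3 in Ventral Thalamus (1.57%) and 2 in Medial against Ventral Thalamus (1.86%). With the block, 2 members passed: VAMP1, which was higher in Ventral Thalamus, and SYT17, which was higher in Medial Thalamus than in Ventral Thalamus. The other 51 passed in no comparison between nuclei.

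**Figure D1:**
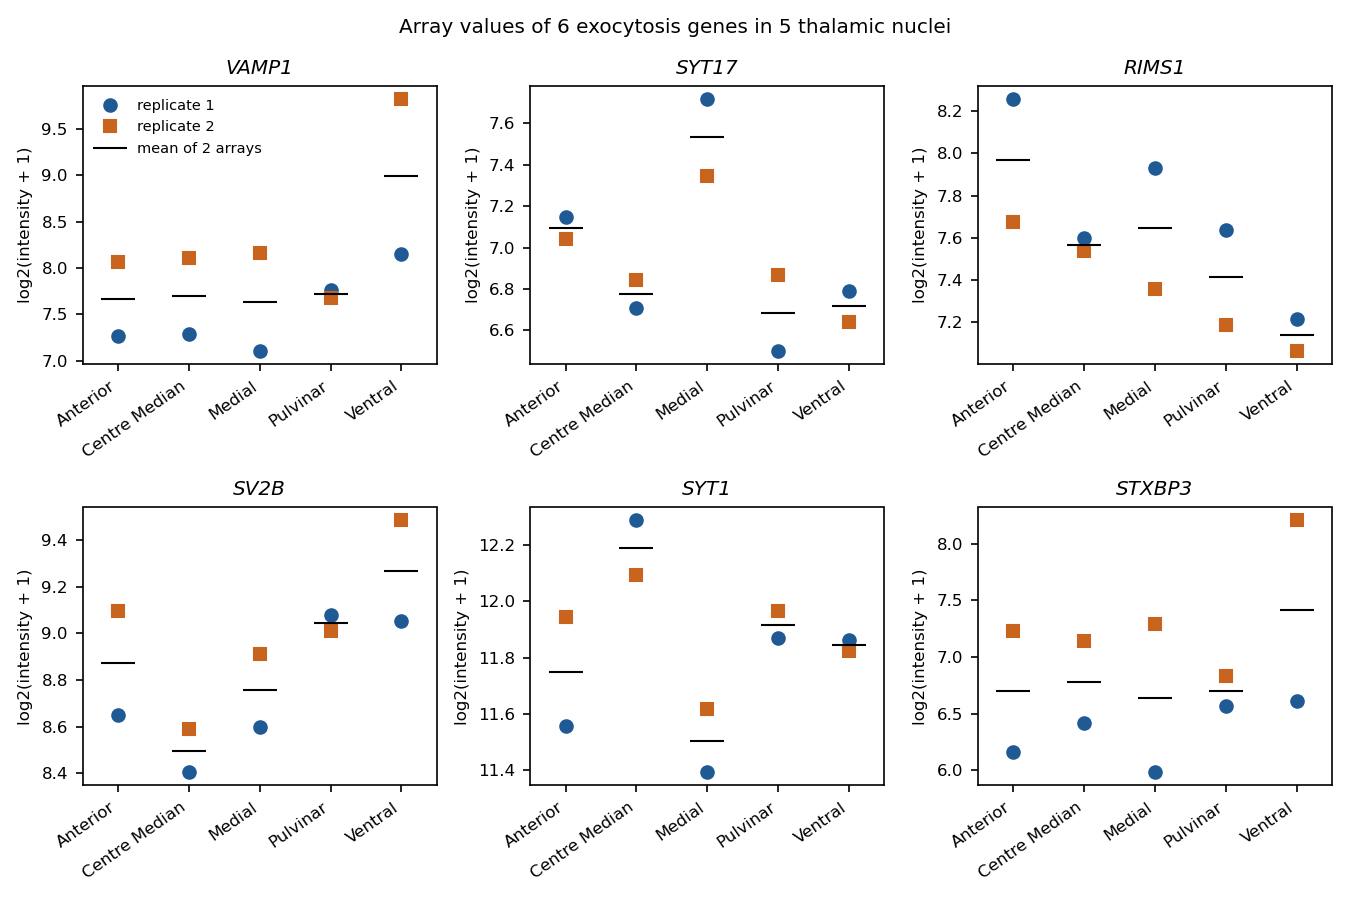
Levels of VAMP1, SYT17, RIMS1, SV2B, SYT1 and STXBP3, log2(intensity + 1), by nucleus, with circles for replicate 1 arrays, squares for replicate 2 arrays and a bar for the mean of both. VAMP1 reaches 9.83 on the Ventral Thalamus replicate 2 array, and SYT17 is highest on the Medial Thalamus arrays at 7.72 and 7.35.

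Among the vesicle SNAREs, VAMP1 (synaptobrevin 1), the form prominent at fast synapses of the brainstem, spinal cord and neuromuscular junction, stood at 8.15 in replicate 1 and 9.83 in replicate 2 of Ventral Thalamus. In replicate 1 the other nuclei were at 7.27 in Anterior Thalamus, 7.29 in Centre Median, 7.10 in Medial Thalamus and 7.76 in Pulvinar. In replicate 2 they were at 8.07, 8.11, 8.16 and 7.68 in the same order. Ventral Thalamus was the highest nucleus in each replicate set, but its replicate 1 array did not exceed the replicate 2 array of Medial Thalamus, so the groups overlapped across sets. With the block VAMP1 was higher in Ventral Thalamus than the mean of the other nuclei by 1.31 (SE 0.219), a 2.48-fold difference, at a limma adjusted p of 0.0210, and the adjusted p without the block was 0.9999. It was 1 of 53 members called there, beside 0.527% of all genes, and 11 members had an unadjusted p under 0.05, beside 11.9% of genes. The size differed between sets, at 0.80 within replicate 1 and 1.83 within replicate 2, and without the replicate 2 array of Ventral Thalamus it was 0.80 at an adjusted p of 0.419. The call was also lost when either array of Anterior Thalamus or of Centre Median was left out, at adjusted p-values of 0.0600 and 0.0559 for Anterior Thalamus replicates 1 and 2 and 0.0508 and 0.0681 for those of Centre Median.

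The chip carries 3 probe sets for VAMP1, and they did not give one value. The 2 not used above differed in Ventral Thalamus by 0.45 and 0.12, and the smaller one had opposite signs in the sets, at -0.11 and 0.35. With the mean of the 3 probe sets and the block, an alternative chosen after seeing the data, the difference was 0.63 and the adjusted p 0.130. Ventral Thalamus also had the widest gap between 3' and 5' actin control probes, a sign of shorter RNA or cDNA, at 1.22 against -0.09 to 0.46 in replicate 1 and 1.64 against 1.15 to 1.36 in replicate 2. With that gap as a covariate in the blocked fit VAMP1 differed by 1.67 at a limma adjusted p of 0.156, and no member was called between nuclei. Because the gap goes with both the nucleus and the replicate number, what the lost call owes to it cannot be told.

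The other vesicle SNAREs stayed close together. VAMP7, which acts in late endosomes and neurite growth, differed in Ventral Thalamus by 0.29 (adjusted p 0.269 with the block). VAMP2, the main vesicle SNARE of forebrain synapses, differed there by 0.13. The unused VAMP2 probe sets went the other way, with Ventral Thalamus below the mean of the other nuclei within each replicate set. VAMP5, a relative described in muscle, was at 6.69 and 6.34 in Pulvinar and from 5.99 to 6.50 elsewhere, and differed by 0.28 (adjusted p 0.999). It was highest of the 5 nuclei in both sets, as were 2.89% of genes, yet its lower Pulvinar array lay among those of the other nuclei. In a second VAMP5 probe set Pulvinar, at 4.74 and 4.58, was the highest nucleus in neither set. VAMP8, an endosomal SNARE, was at 4.92 and 5.12 in Anterior Thalamus, the lowest array of each set, with a difference of -0.24 (adjusted p 0.860). Of the 7 vesicle SNAREs 1 lay above 0 in Anterior Thalamus and 5 in Ventral Thalamus, against 50.3% and 46.6% of all genes.

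The target SNAREs, 17 syntaxins and SNAP proteins, held no member that passed between nuclei. Their differences from the other nuclei had their lowest value, -0.35, in Medial Thalamus and their highest, 0.32, in Ventral Thalamus, and both extremes were SNAP25, the neuronal partner of syntaxin 1. SNAP25 had a level of 12.33 and 13.38 in Ventral Thalamus and 11.98 and 12.65 in Medial Thalamus, with 12.03 to 12.68 in replicate 1 and 12.72 to 12.99 in replicate 2 of the other nuclei. Only the replicate 2 array set Ventral Thalamus above the rest, and the differences within the sets were 0.03 and 0.61. A second SNAP25 probe set gave -0.85 and 0.65. SNAP23, the counterpart of SNAP25 in most cell types, was at 5.42 and 5.88 in Ventral Thalamus and from 5.09 to 5.34 in replicate 1 and 5.50 to 5.56 in replicate 2 of the other nuclei. Its blocked difference of 0.29 had an adjusted p of 0.170, and 2 further SNAP23 probe sets were at -0.03 and -0.04. STX11, a syntaxin of immune cells, was at 4.88 and 4.82 in Anterior Thalamus and at 4.90 to 5.32 in the others; both arrays lay below the other 8, as for 0.426% of genes, and the difference of -0.18 did not pass (adjusted p 0.860).

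Among the synaptotagmins and complexins, SYT17 was the member that passed. SYT17 is an atypical synaptotagmin, also known as B/K protein. Its level in Medial Thalamus was 7.72 and 7.35, followed by 7.15 and 7.04 in Anterior Thalamus. It was 6.71 and 6.85 in Centre Median, 6.79 and 6.64 in Ventral Thalamus and 6.50 and 6.87 in Pulvinar. Both Medial Thalamus arrays lay above the other 8, as for 0.961% of genes, while the arrays of Centre Median, Ventral Thalamus and Pulvinar overlapped. Medial Thalamus exceeded Ventral Thalamus by 0.82 (SE 0.161, limma adjusted p 0.0330 with the block and 1.0 without it). That comparison called 2 of 53 members, SYT17 and, in the other direction, VAMP1 at -1.36 (SE 0.277, adjusted p 0.0394), beside 1.08% of all genes, and 16 members had an unadjusted p under 0.05, beside 14.0% of genes. Against the mean of the other nuclei SYT17 differed in Medial Thalamus by 0.72 (SE 0.127), 0.93 within replicate 1 and 0.50 within replicate 2, and did not pass at an adjusted p of 0.0522.

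Both calls between Medial and Ventral Thalamus depended on which arrays were in the fit. Arrays of the other nuclei do not enter this difference and change only the estimate of the spread. Without such an array the blocked difference stayed at 0.82 for SYT17 and -1.36 for VAMP1. Neither call was lost without a Pulvinar array. With replicate 1 split by XIST and RPS4Y1 both passed, at limma adjusted p-values of 0.00959 for SYT17 and 0.00809 for VAMP1. SYT17 was no longer called without either array of Anterior Thalamus or of Centre Median (adjusted p 0.0553 to 0.0571), without Medial Thalamus replicate 1 (0.60, adjusted p 0.188), or without Ventral Thalamus replicate 1 (0.110) or 2 (0.244). VAMP1 was no longer called there without either array of Anterior Thalamus or Centre Median (0.0664 to 0.0697), without Medial Thalamus replicate 1 (0.158) or without Ventral Thalamus replicate 2 (-0.84, adjusted p 0.322). With quantile normalization and the block neither passed, at adjusted p-values of 0.0815 for SYT17 and 0.0657 for VAMP1. With the mean of each gene's probe sets and the block, chosen after seeing the data, neither passed either, at 0.0602 for SYT17 (0.82) and 0.157 for VAMP1 (-0.63). Against the other nuclei the blocked SYT17 difference in Medial Thalamus was 0.50 without Medial Thalamus replicate 1 and 0.93 without replicate 2. It was 0.65 without Pulvinar replicate 1 and 0.78 without Pulvinar replicate 2. It did not pass with the actin gap in the blocked fit (0.62, limma adjusted p 0.236). With quantile normalization and the block it was 0.73 and did not pass either (limma adjusted p 0.1005).

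SYT1, the fast calcium sensor of most forebrain synapses, stood at 12.29 and 12.09 in Centre Median. The other levels were 11.56 and 11.94 in Anterior Thalamus, 11.87 and 11.97 in Pulvinar, 11.86 and 11.82 in Ventral Thalamus and 11.39 and 11.62 in Medial Thalamus. Both Centre Median arrays lay above the other 8, as for 0.861% of genes, and Medial Thalamus was lowest in each set. SYT1 had an adjusted p of 0.562 in Centre Median (difference 0.44, SE 0.148) and of 0.317 in Medial Thalamus (-0.42), so neither passed. The second SYT1 probe set had the same order of nucleus means, at 0.69 in Centre Median and -0.65 in Medial Thalamus, with the same sign in both replicate sets. Its single arrays did not keep that order. Pulvinar replicate 2 (10.77) lay above both Centre Median arrays (10.36 and 10.65), and Anterior Thalamus replicate 1 (9.21) below Medial Thalamus replicate 1 (9.35).

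Of the remaining calcium sensors, SYT5 was at 7.33 and 6.33 in Medial Thalamus and from 6.08 to 6.76 elsewhere. Its high value was the replicate 1 array alone, and the difference of 0.47 (adjusted p 0.225 with the block) was 0.79 within replicate 1 and 0.16 within replicate 2. It passed without Medial Thalamus replicate 2 (0.79, adjusted p 0.0348). SYT2, the sensor of fast synapses in the hindbrain, was at 9.41 and 9.59 in Ventral Thalamus, and its difference of 0.35 was 0.04 and 0.66 within the sets (adjusted p 0.444). CPLX2, a complexin, was at 6.57 and 6.10 in Medial Thalamus and at 5.88 and 5.91 in Ventral Thalamus, where both arrays lay below the other 8, as for 0.861% of genes. Its difference in Medial Thalamus was 0.35 (adjusted p 0.281). Of the 9 synaptotagmins and complexins 4 were above 0 in Medial Thalamus and 5 in Ventral Thalamus, against 49.8% and 46.6% of all genes.

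The docking and priming factors included the member with the widest anterior difference. RIMS1, a scaffold of the active zone that links vesicles to calcium channels, was at 8.26 and 7.68 in Anterior Thalamus and at 7.22 and 7.06 in Ventral Thalamus. Between them lay Medial Thalamus at 7.93 and 7.36, Centre Median at 7.60 and 7.54 and Pulvinar at 7.64 and 7.19. Anterior Thalamus was highest and Ventral Thalamus lowest in both replicate sets, whereas the replicate 2 array of Anterior Thalamus lay below the replicate 1 array of Medial Thalamus. The difference in Anterior Thalamus was 0.53 (SE 0.119, adjusted p 0.791), 0.67 and 0.39 within the sets. In Ventral Thalamus it was -0.51 (SE 0.119, adjusted p 0.0878), -0.64 and -0.38 within the sets. Without the block both missed the threshold too. Among all genes 0.0% were called in Anterior Thalamus with the block, and 2 members there had an unadjusted p under 0.05, beside 5.75% of genes.

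STXBP3 (Munc18c), the partner of syntaxin 4 in exocytosis outside the synapse, was at 6.62 and 8.21 in Ventral Thalamus. The other nuclei were at 5.98 to 6.57 in replicate 1 and 6.83 to 7.29 in replicate 2. Ventral Thalamus was the highest in each set, by 0.33 and 1.08 over the mean of the others. The blocked difference was 0.71 (SE 0.186, adjusted p 0.123), and without the replicate 2 array of Ventral Thalamus the difference in the fit without a block was -0.09. STXBP3 passed in the blocked fit without Pulvinar replicate 1 (0.82, adjusted p 0.0348) and with replicate 1 split by XIST and RPS4Y1 (0.92, adjusted p 0.00616). RAB3D, a small GTPase of secretory vesicles, was at 6.70 and 6.26 in Ventral Thalamus, the lowest array of each set, with a difference of -0.34 (adjusted p 0.184). UNC13A, the priming factor Munc13-1, was lowest in Pulvinar in both sets. Of the 11 docking and priming factors, 9 were above 0 in Medial Thalamus (median 0.12), and 4 in Ventral Thalamus (median -0.05). Among all genes the shares were 49.8% and 46.6%.

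Among the vesicle-associated proteins, SV2B, a glycoprotein of the vesicle membrane, was lowest in Centre Median at 8.40 and 8.59. The other levels were 8.60 and 8.91 in Medial Thalamus, 8.65 and 9.10 in Anterior Thalamus, 9.08 and 9.01 in Pulvinar and 9.05 and 9.49 in Ventral Thalamus. Both Centre Median arrays lay below the other 8, as for 0.702% of genes, with a difference of -0.49 (SE 0.117, adjusted p 0.180). Ventral Thalamus was above the others by 0.48 (adjusted p 0.107), 0.37 and 0.59 within the sets, and passed with replicate 1 split by XIST and RPS4Y1 (0.56, adjusted p 0.0421). SYP (synaptophysin), a major vesicle membrane protein, was likewise lowest in Centre Median within each set, at 7.16 and 6.73, with a difference of -0.43 (adjusted p 0.835). It was at 8.19 in Pulvinar and 8.36 in Ventral Thalamus in replicate 1 but 6.79 and 6.88 in replicate 2.

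SV2C, at 5.35 and 5.31 in Anterior Thalamus and 5.10 to 5.29 elsewhere, was the other member with both arrays above all others, as for 0.761% of genes. Its difference was 0.13 (adjusted p 0.881). NSF, the ATPase that takes SNARE bundles apart, was at 10.36 and 11.09 in Ventral Thalamus, where it was highest in both sets, with a difference of 0.37 (adjusted p 0.297). SYN3, a synapsin, was highest in Medial Thalamus and lowest in Ventral Thalamus in both sets. The used SYN2 probe set differed by -0.07 in Ventral Thalamus, whereas a second one was at -0.87, with -1.28 and -0.47 in the sets. By the probe sets used, none of the 9 genes of this group lay above 0 in Centre Median (median -0.17), against 48.3% of all genes. The second SYN2 probe set, at 7.60 and 7.36 in Centre Median, lay above the mean of the other nuclei in each set. In Ventral Thalamus 7 of the 9 genes lay above 0 (median 0.15), against 46.6% of all genes. Within the sets, Centre Median was above the other nuclei by 0.02 for SNAP91 in replicate 1 and by 0.02 for SYN3 in replicate 2.

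**Figure D2:**
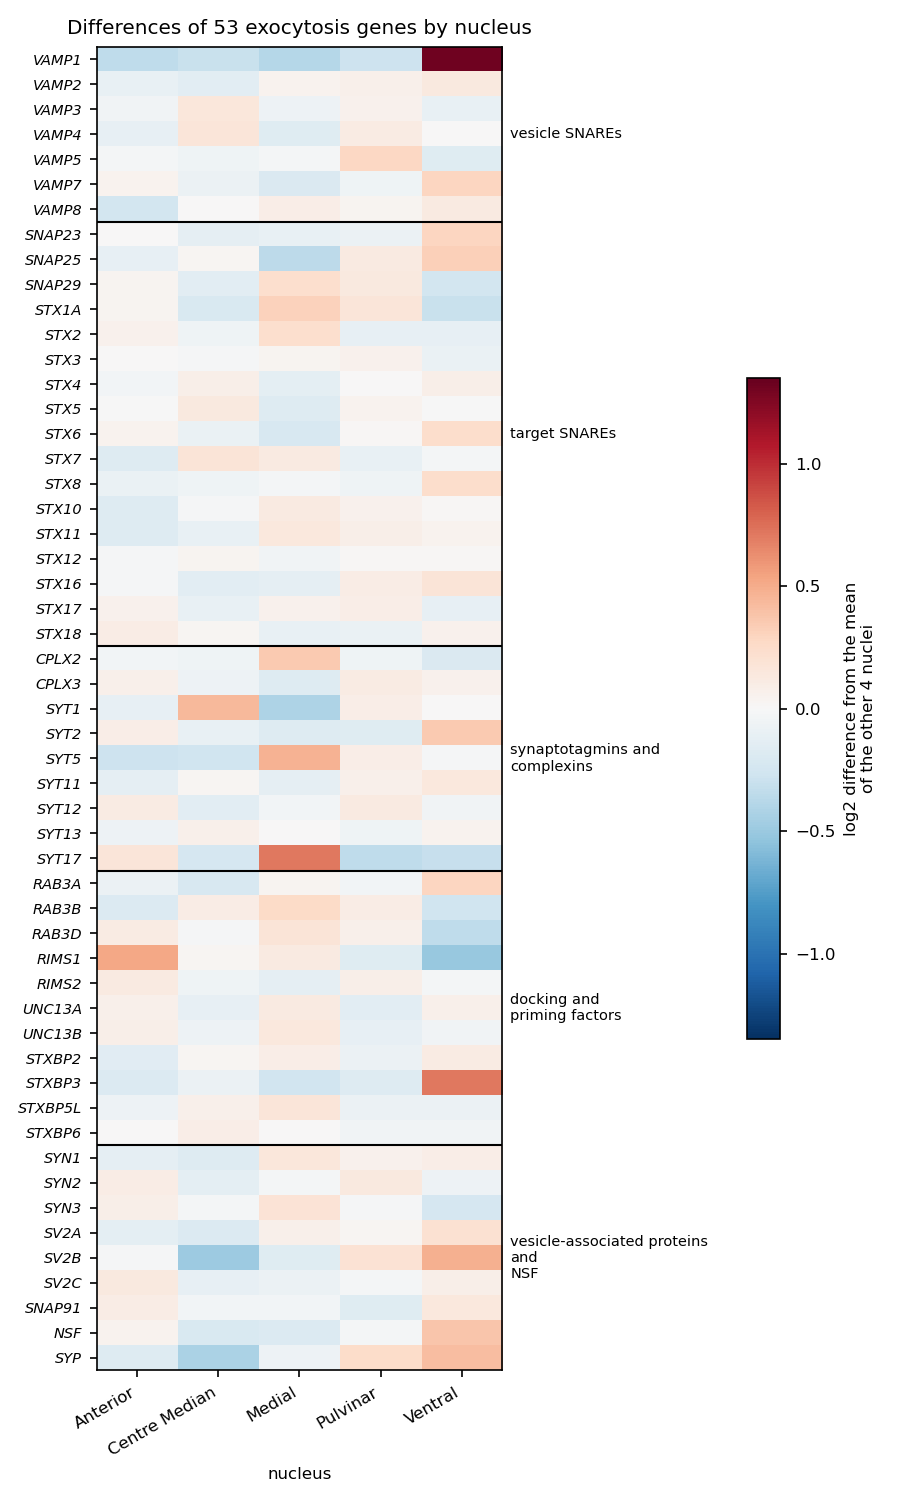
Difference of each nucleus from the mean of the other 4, log2, for the members grouped by role, from the fit with the replicate block. VAMP1 in Ventral Thalamus is at 1.31 and SYT17 in Medial Thalamus at 0.72. By the probe sets used, the 9 vesicle-associated genes are all below 0 in Centre Median, where 48.3% of all genes are above 0. A second SYN2 probe set, not shown, lay above the mean of the other nuclei there.

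Seen by nucleus, the medians of the whole list were small, and the share of members above 0 differed from that of all genes most in Centre Median and Ventral Thalamus. The medians over the 53 members were -0.02 in Anterior Thalamus, -0.06 in Centre Median, -0.02 in Medial Thalamus, 0.03 in Pulvinar and 0.05 in Ventral Thalamus, and over all genes they were between -0.01 and 0.00052. In Centre Median 17 members lay above 0 and 36 below, so 32.1% were above 0, against 48.3% of all genes. In Ventral Thalamus 31 lay above 0, which is 58.5% of members against 46.6% of all genes. The shares above 0 were 45.3% against 50.3% in Anterior Thalamus, 49.1% against 49.8% in Medial Thalamus and 56.6% against 49.5% in Pulvinar. With the block, limma called 0 members in Centre Median (0.176% of genes), Medial Thalamus (0.159%), Pulvinar (0.0%) and the F test over the nuclei (0.393%). At an unadjusted p under 0.05 these had 3 members in Centre Median (5.92% of genes), 4 in Medial Thalamus (10.3%), 2 in Pulvinar (3.73%) and 8, or 15.1% of members, in the F test (9.68%). The members with the smallest F adjusted p-values were SYT17 at 0.0989, VAMP1 at 0.112, RIMS1 at 0.127 and SV2B at 0.143.

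Differences that had the same sign in both replicate sets were 34 of 53 (64.2%) in Medial and 34 in Ventral Thalamus, against 51.6% and 59.6% of all genes, and 32 (60.4%) in Centre Median, against 53.0%. They were 25 (47.2%) in Anterior Thalamus and 27 (50.9%) in Pulvinar, against 49.9% and 48.6%. Ventral Thalamus had the highest array of both sets for 7 members (NSF, RAB3A, SNAP23, STX16, STXBP3, VAMP1 and VAMP7), beside 8.69% of genes, and the lowest for 4 (CPLX2, RAB3D, RIMS1 and SYN3), beside 5.78%. Medial Thalamus had the highest for SYN3, SYT17 and SYT5 (5.01% of genes) and the lowest for CPLX3, SNAP25, STX5 and SYT1 (5.53%). Anterior Thalamus was highest for RIMS1 and SV2C (4.61%) and lowest for STX11 and VAMP8 (3.12%). Centre Median was highest for SYT1 (3.58%) and lowest for SV2B and SYP (4.14%), and Pulvinar was lowest for UNC13A (2.86%).

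**Figure D3:**
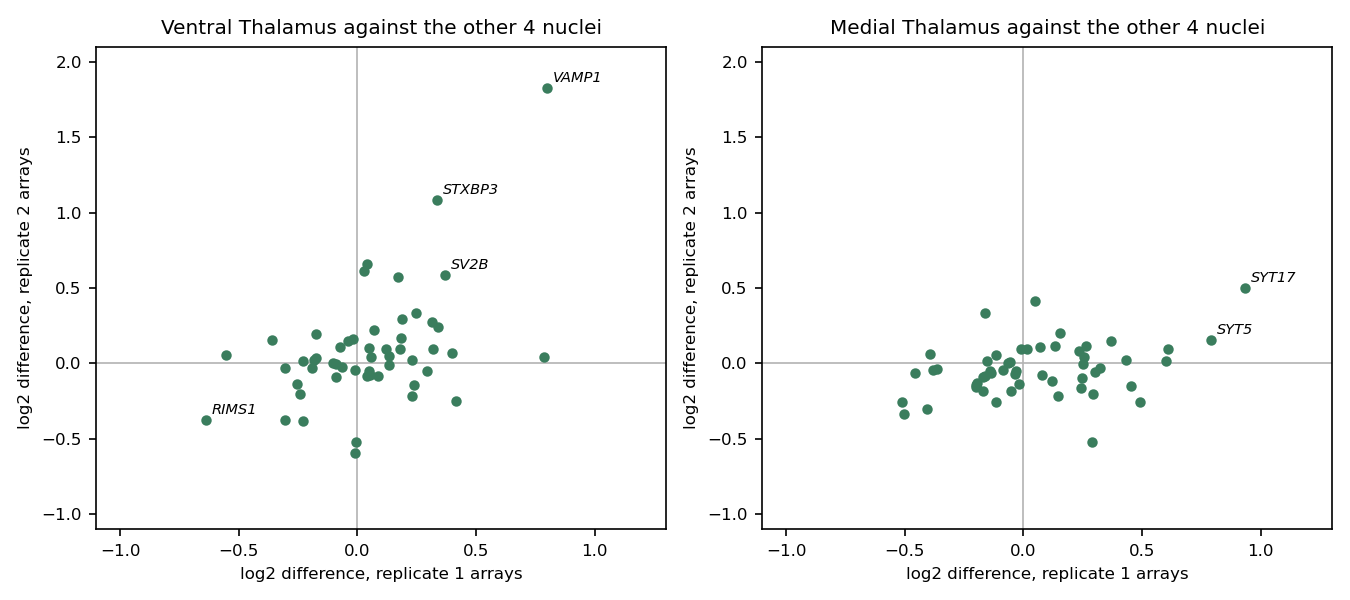
Difference of Ventral Thalamus (left) and Medial Thalamus (right) from the mean of the other 4 nuclei, log2, within replicate 1 (horizontal axis) and within replicate 2 (vertical axis), 1 point per member. VAMP1 in Ventral Thalamus lies at 0.80 and 1.83, and SYT17 in Medial Thalamus at 0.93 and 0.50.

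Cell type markers moved with these nuclei, and their part in the results was not tested. In Ventral Thalamus, where 46.6% of all genes lay above 0 and 0.527% passed with the block, 6 of 9 neuronal markers lay above 0 (median 0.38). Neurofilament light chain NEFL passed (1.06, limma adjusted p 0.0241 with the block). The summed intensity of the list was 26070 and 26760 against 16110 to 22670 on the other arrays. In the same nucleus 7 of 8 oligodendrocyte markers lay above 0 (median 0.44), CNP and MAG passed, and the summed intensity was 15540 and 18860 against 7804 to 15450. Of 7 astrocyte markers 3 lay above 0 there, with a median of -0.09. GFAP was the only astrocyte marker that passed, as lower, at -1.11 (limma adjusted p 0.0378 with the block). In Medial Thalamus 1 of 8 oligodendrocyte markers and 6 of 7 astrocyte markers lay above 0, against 49.8% of all genes. GAD1 of inhibitory neurons passed there as lower, beside 0.159% of all genes called. The Medial Thalamus replicate 2 array also held TTR, the transport protein of the choroid plexus, at 12.19 against 7.17 to 8.41 on the other 9 arrays. Without this array SYT17 exceeded the other nuclei by 0.93, and without Medial Thalamus replicate 1 by 0.50.

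The genes whose profile over the 10 arrays was closest to a member were found by the root mean square (rms) difference after each replicate set was centred. For VAMP1, whose own rms deviation was 0.60, they were NEFL at 0.21, PPARGC1A at 0.26, STXBP3 at 0.26, SMPX at 0.28 and ADCY1 at 0.30. For SYT17 (0.35) they were GPX3 at 0.14, ANXA2 and TRH at 0.15, and TUSC3 and LRP8 at 0.16. For RIMS1 (0.29) they were DENND2D at 0.11, APBA1, SPN and KITLG at 0.14 and DNAJB4 at 0.15.

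Other genes of the vesicle cycle were taken from 4 lists. Of 25 measured genes of vesicle recycling and endocytosis, 20 lay above 0 in Ventral Thalamus (median 0.11), against 46.6% of all genes. PICALM, which helps clathrin coats form, was the one that passed. With the block, 0.527% of all genes passed in Ventral Thalamus and 1.08% in Medial against Ventral Thalamus. PICALM was at 9.49 and 10.30 in Ventral Thalamus, the highest array of each set, and at 8.82 and 9.54 in Medial Thalamus. It was higher in Ventral Thalamus by 0.55 (SE 0.104, adjusted p 0.0385 with the block) and lower in Medial than in Ventral Thalamus, with a difference of -0.72 (adjusted p 0.0237). EPS15, an endocytic adaptor, was at -0.53 in Medial Thalamus (adjusted p 0.118). None of 34 active zone scaffolds and release regulators passed in any nucleus. RPH3A, a RAB3 effector, was at -0.66 in Centre Median (adjusted p 0.166) and NRXN3, a presynaptic adhesion receptor, at 0.82 in Pulvinar (0.352). None of 16 proton pump genes, which acidify the vesicle, passed, with ATP6AP2 at 0.40 in Ventral Thalamus (0.201). Of 5 vesicular transmitter transporters SLC17A6, the glutamate transporter VGLUT2, was lower in Medial than in Ventral Thalamus, with a difference of -0.77 (SE 0.162, adjusted p 0.0460). Without the block, 0 genes of these lists passed.

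More members differed between replicates than between nuclei. With nucleus in the fit, 32 of 53 members passed between replicate 2 and replicate 1, beside 56.6% of all genes (61.7% at an unadjusted p under 0.05). Of these 16 were higher in replicate 2, beside 25.4% of genes, and 16 lower, beside 31.1%. STXBP3 (0.99), VAMP1 (0.85), VAMP7 (0.83) and STX4 (0.71) were among the highest, and SYP (-0.88), SYN1 (-0.82), STX17 (-0.66) and SNAP29 (-0.57) among the lowest. SYN1, a phosphoprotein that tethers vesicles, was at 9.57 to 10.31 in replicate 1 and 8.94 to 9.31 in replicate 2. STX17, a syntaxin of autophagosomes, was at 5.90 to 6.29 in replicate 1 and 5.34 to 5.50 in replicate 2. VAMP1 was higher in replicate 2 in Anterior Thalamus (0.80), Centre Median (0.82), Medial Thalamus (1.06) and Ventral Thalamus (1.68) and not in Pulvinar (-0.08). In all 5 nuclei the sign was the same for 12 members higher and 17 lower in replicate 2, which is 22.6% and 32.1% of members, against 25.4% and 30.9% of genes. The count of 32 fell to 1 (STX10) with the actin 3' to 5' gap in the fit, a gap that was 1.15 to 1.64 in replicate 2 and -0.09 to 1.22 in replicate 1. Because the gap largely follows the replicate number, this fit cannot separate the gap from the replicate number.

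**Figure D4:**
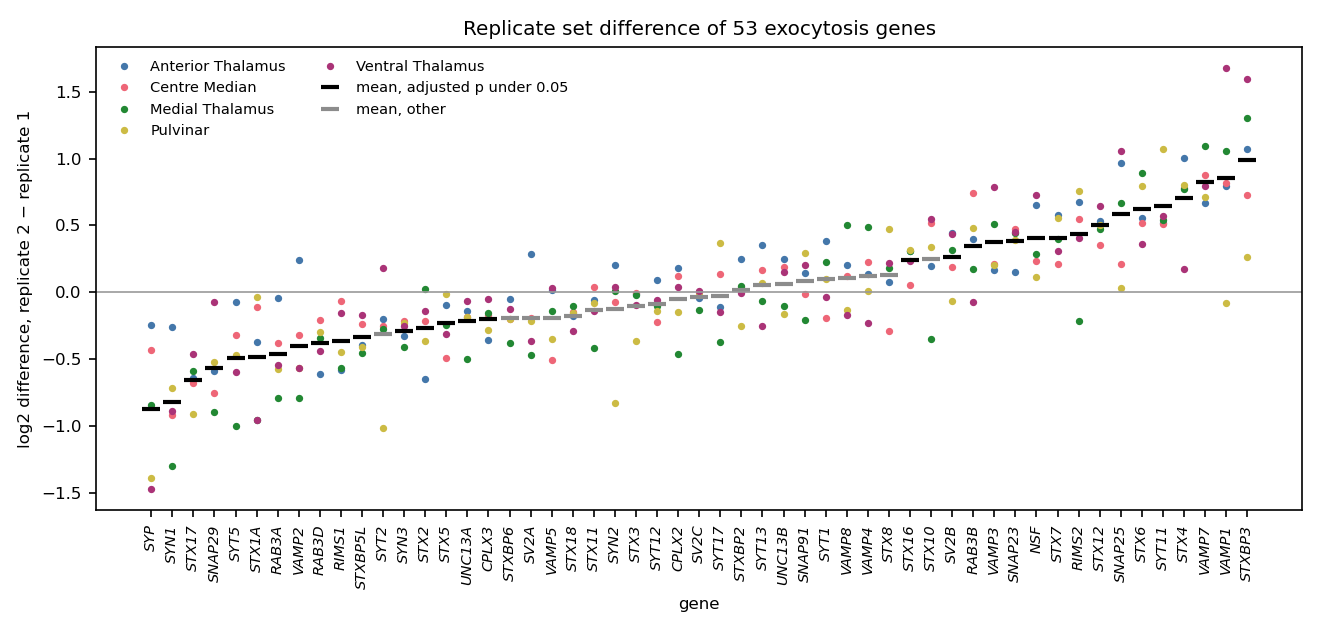
Difference of replicate 2 from replicate 1, log2, for each member, with 1 coloured point per nucleus and a bar for the mean, black where the adjusted p was under 0.05. STXBP3, VAMP1 and VAMP7 lie among the highest at 0.99, 0.85 and 0.83 on average, and SYP and SYN1 among the lowest at -0.88 and -0.82.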

How the data were processed

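The authors deposited intensity values per probe set, for which the submitters' processing notes name RMA, without a version. Whether both replicate sets were normalised together is not given in the sources used here. The lowest intensity was 12.0 to 12.3 on replicate 1 arrays and 9.49 to 9.55 on replicate 2 arrays. Values were used as log2(value + 1). Of 22283 probe sets, 68 controls, 1043 with several symbols and 2107 without a listed symbol were left out. Each gene was read from its brightest probe set by mean over the 10 arrays, and the 53 members have 82 probe sets. Of the 29 unused probe sets of members, 18 had the sign of the used one in Anterior Thalamus and 18 in Ventral Thalamus. The count was 21 in Centre Median, 20 in Medial Thalamus and 19 in Pulvinar. No low-value filter was applied; 21 members lay below the median gene (6.99). Arrays give no count depth, and their number limits the precision.

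One coefficient per nucleus was fitted with limma 3.58.1 in R 4.3.3 (empirical Bayes with a variance trend), Benjamini-Hochberg adjusted over all genes and called under 0.05, and checked on simulated data. Correlations of replicate differences between nuclei were 0.758 to 0.831, so replicate numbers were treated as pairing the arrays. XIST and RPS4Y1 differed among the replicate 1 arrays, so these may not form a single matched set. Named members are those called in any nucleus comparison, the 8 with the smallest blocked F p and the 3 with the smallest p per nucleus; SNAP25, SYT2, VAMP2, VAMP7, SV2C, NSF, SYN1, SYN2, SYN3, STX17, STX4, SNAP29, RAB3D and UNC13A were added after their values were seen. Pathway genes named are those called and the 2 per list with the smallest F p, except ATP6V1G1 and SLC18A2. The latter met this rule, passed in no comparison and are not described above. Members and lists were chosen with earlier results of these data known. Alternatives were another pseudocount, filter, normalization, probe set rule, block or trend, and leaving out each array. Figures used Python 3.11.15 and matplotlib 3.10.9.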

Additional observations from a re-analysis of the deposited data

How the results depend on the processing

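No alternative without the replicate block called a member between nuclei, and each array left out of that fit left 0. With a replicate block, the members called were 1 in Ventral Thalamus and 2 in Medial minus Ventral Thalamus. Splitting replicate 1 by XIST and RPS4Y1 gave 3, 3 and, in the F test, 2. For this and the alternatives below, the share of all genes called is not given here. A change in count therefore cannot be read as particular to the members. Without genes below the median, the blocked counts were 1 and 1, and with quantile normalization 1 in Ventral Thalamus. Chosen after seeing the data, with the block, a pseudocount of 16 gave 1 and 2, no variance trend 1 and 1, and the mean of each gene's probe sets 0 and 0. Leaving out each array from the blocked fit gave 0 to 2 in Ventral Thalamus, 0 to 3 in Medial minus Ventral Thalamus, 0 to 2 in the F test and 0 to 2 in Medial Thalamus. Between replicates, 32 fell to 1 with the actin gap and to 20 without low genes, which leaves fewer members tested, and ran from 26 to 31 with an array left out. Signs turned for SV2B in Pulvinar (-0.012 with the block, without Pulvinar replicate 1), SYT5 in Medial Thalamus (-0.028 without replicate 1 of that nucleus, 0.97 without replicate 2) and STXBP3 in Ventral Thalamus (-0.087 without its replicate 2, 1.51 without its replicate 1), the last 2 without the block. Except where a construction is named, the cause was not tested.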
